A study of Mus musculus with 2 samples.

Results

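The cells described here are neutrophils of 4T1 mouse mammary tumours that carried transcripts of inflammatory chemokines or of the prostaglandin synthase gene Ptgs2 and none of Retnlg or Mmp8, 2 transcripts of maturing and circulating neutrophils. They are called Retnlg-negative chemokine neutrophils below. A barcode was a member when 6 conditions held in its raw UMI (unique molecular identifier) counts. It had at least 200 genes and at most 20% mitochondrial UMIs. S100a8 and S100a9 together made at least 2% of its UMIs. Csf3r, Cxcr2, Hdc and G0s2 together gave at least 2 UMIs. C1qa, C1qb and C1qc together gave at most 1 UMI, with none of Cd3e. Retnlg and Mmp8 were both at 0 UMIs. Ccl3, Ccl4, Cxcl3 and Ptgs2 together gave at least 1 UMI. The rule found 707 members among 21664 kept cells, 274 of 10803 in the vehicle library and 433 of 10861 in the beta-elemene library.

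The tumours came from mice injected in the mammary fat pad with 1000000 4T1 cells, a mouse triple-negative mammary carcinoma line, in Matrigel and PBS. Mice of 1 group received beta-elemene, a plant sesquiterpene, at 30 mg/kg by daily intraperitoneal injection, and the vehicle group received normal saline. Tumours were taken after 18 days, dissociated with enzymes and profiled by droplet single-cell RNA sequencing. There was 1 library per group. The strain, the age and the number of mice behind each library are not given in the sources used here. A difference between the libraries therefore has no replicate check, no p-value is given, and every 95% interval covers counting error only.

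Neutrophils are short-lived granulocytes that leave the bone marrow with their granule proteins already made. In inflamed tissue and in tumours they can transcribe chemokines and cytokines, largely under the control of NF-kB factors. Cxcl2 and Cxcl3 are ligands of Cxcr2 and attract further neutrophils. Ccl3 and Ccl4 attract monocytes, T cells and other leukocytes. Ptgs2 encodes cyclooxygenase-2, which makes the precursor of prostaglandins, and Acod1 encodes the mitochondrial enzyme that makes itaconate.

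The selecting genes lie in separate loci, apart from the Ccl3 and Ccl4 pair. In the GRCm38 annotation Cxcl3 spans chr5:90786103-90789600 (ENSMUSG00000029379), Ccl3 chr11:83647844-83649355 (ENSMUSG00000000982), Ccl4 chr11:83662584-83664683 (ENSMUSG00000018930), Ptgs2 chr1:150100031-150108227 (ENSMUSG00000032487) and Acod1 chr14:103046977-103056573 (ENSMUSG00000022126). The promoter stretches below are shown because the members were chosen by transcripts of Cxcl3, Ccl3 and Ptgs2 and because the chemokine Cxcl2 was graded with them. Each is the 150 bases before the RefSeq start site (GRCm38.p6), 5′ to 3′, with the kB-like motif (GGG, any 2 bases, then TTTCC), the C/EBP-like motif TTNNGNAA and the cyclic-AMP element core TGACGT in capitals where a script found them on either strand.
Cxcl3, chr5:90785951-90786100, plus strand: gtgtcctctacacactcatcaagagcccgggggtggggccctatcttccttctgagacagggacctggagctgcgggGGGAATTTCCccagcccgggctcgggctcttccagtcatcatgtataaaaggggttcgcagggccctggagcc
Cxcl2, chr5:90903749-90903898, plus strand: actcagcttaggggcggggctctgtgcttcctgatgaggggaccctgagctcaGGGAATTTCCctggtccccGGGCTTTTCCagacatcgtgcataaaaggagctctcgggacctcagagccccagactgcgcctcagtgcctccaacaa
Ccl3, chr11:83649379-83649528, minus strand: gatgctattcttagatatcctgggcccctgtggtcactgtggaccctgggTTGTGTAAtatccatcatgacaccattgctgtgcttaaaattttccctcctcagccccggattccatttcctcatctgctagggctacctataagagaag
Ptgs2, chr1:150099881-150100030, plus strand: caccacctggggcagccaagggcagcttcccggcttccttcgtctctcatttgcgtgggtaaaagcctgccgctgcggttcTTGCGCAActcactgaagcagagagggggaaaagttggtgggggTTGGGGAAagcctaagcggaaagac

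The search covered 300 bases of each promoter, 250 before to 50 after the start. Cxcl3 held 1 kB-like match, with its first base at -73 from the start, and Cxcl2 held 2, at -97 and -78. This motif was in 535 of 32851 promoters of the same length, or 1.63%. No match to it lay in the Ccl3, Ptgs2 or Acod1 windows. A looser form, GGG and CC with any 5 bases between, which covers every kB-like match, was in 50.8% of all promoters and in the Cxcl3, Cxcl2, Ptgs2 and Acod1 windows. The C/EBP-like motif was in 40.7% of promoters, with 2 matches in Ptgs2 and 1 each in Cxcl2 and Ccl3. The TGACGT core was in 7.51% and had 1 match in Ptgs2, past the start and outside the stretch printed. Of the 6 genes looked up, 5 were matched in the RefSeq promoter table. Matches describe letters in a window and were not tested for binding.

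Members carried neutrophil markers and little RNA. Their median was 1867 UMIs in the vehicle library and 1908 in the beta-elemene library, against 12690 and 10612 over all kept cells. Il1r2, the decoy interleukin-1 receptor, and the lectin genes Clec4d and Clec4e took no part in the rule. Il1r2 was in 65.3% and 70.2% of members, Clec4d in 87.2% and 89.8%, and Clec4e in 75.9% and 79.4%. The shares of Mmp9 and Trem1, also listed as neutrophil markers and outside the rule, are not given here. Ly6g, a surface marker of mature mouse neutrophils outside that list, was in 1.09% and 1.62% of members. Neutrophils with Retnlg or Mmp8 had it in 15.8% and 14.7%. All 4 B cell markers were at 0 UMIs in both libraries, and the 8 dendritic cell markers together reached 7.41 and 6.90 CPM (UMIs per 1000000 UMIs of the summed cells).

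Transcripts of other cell types were present at low level. The 12 macrophage markers together reached 806 CPM in vehicle and 687 in beta-elemene members, most of it Apoe, which was seen in 55.5% and 52.4% of members. Apoe stood at 12623 and 16180 CPM in gated macrophages. The 7 monocyte markers together reached 347 and 502 CPM, with at least 1 of them seen in 32.1% and 40.0% of members. The 6 fibroblast markers reached 439 and 286 CPM, with Pdgfra at 0 in beta-elemene members, and the 6 malignant cell markers 393 and 261 CPM. The 4 red cell markers stood at 1.85 and 31.1 CPM, with 3 of them at 0 in vehicle members. The part of these transcripts in the results below was not tested. Scrublet called 5 vehicle members and 1 beta-elemene member doublets. The libraries had 37 barcodes in common, and 2 members carried a barcode that a kept cell of the other library also carried.

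Retnlg-negative chemokine neutrophils made up a larger share of cells in the beta-elemene library. In vehicle they made up 2.54% of kept cells (95% exact Clopper-Pearson interval 2.25 to 2.85). In beta-elemene they made up 3.99% (3.63 to 4.37), which is 1.57 times as much. All gated neutrophils together made up 6.79% and 11.1%, or 1.63 times as much. Among the 734 gated neutrophils of vehicle the members were 37.3% (33.8 to 40.9), and among the 1206 of beta-elemene 35.9% (33.2 to 38.7), so the intervals of this share overlapped. Neutrophils with at least 1 UMI of Retnlg or Mmp8, called Retnlg/Mmp8 neutrophils below, went from 3.40% to 6.06% of kept cells. Neutrophils with neither those transcripts nor a chemokine-rule UMI went from 0.861% to 1.06%.

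**Figure D1:**
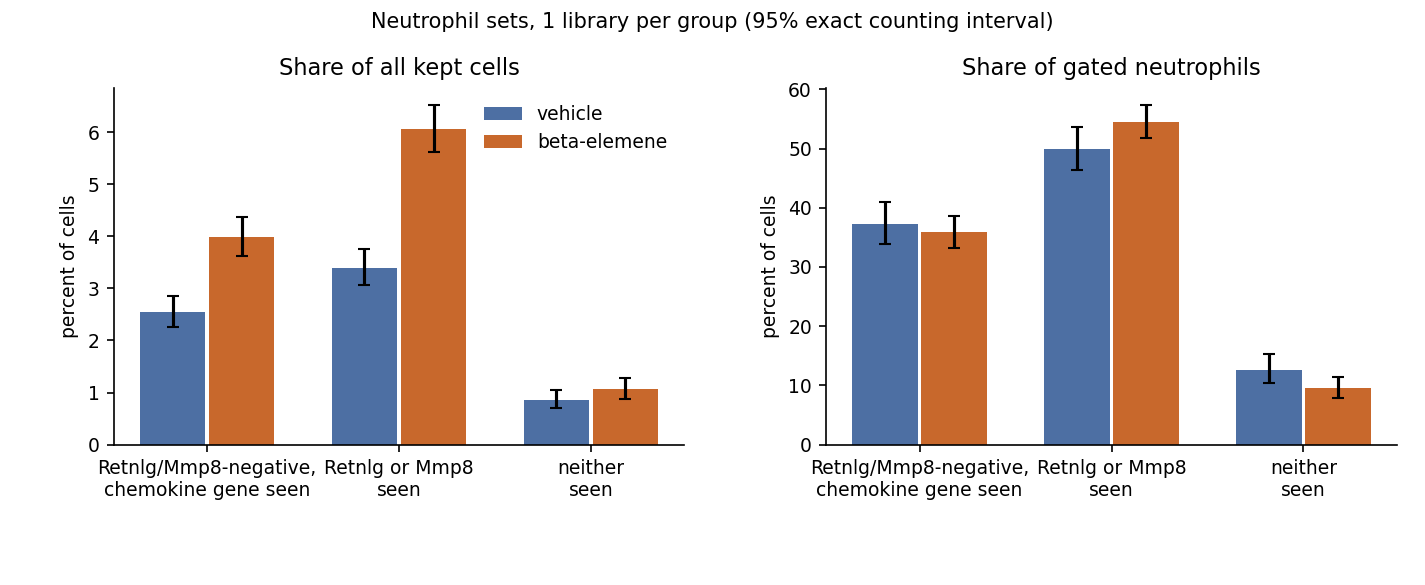
Shares of the 3 neutrophil sets among all kept cells (left) and among gated neutrophils (right), in percent of cells, with 1 bar per library and 95% exact counting intervals. The Retnlg-negative chemokine set reads 2.54% and 3.99% on the left and 37.3% and 35.9% on the right.

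Because a cell needed only 1 UMI to enter, membership near the limit depended on depth. With each cell thinned to 1000 UMIs, 66.7% of Retnlg- and Mmp8-negative neutrophils of the vehicle library had a UMI of any of the 4 chemokine-rule genes (61.3 to 71.8), against 46.1% of Retnlg/Mmp8 neutrophils (40.8 to 51.5). In the beta-elemene library the values were 72.5% (68.4 to 76.4) and 53.9% (49.9 to 57.9). The unthinned shares were 74.7% and 62.7% in vehicle and 79.0% and 68.1% in beta-elemene. A UMI of any of the 4 genes was seen more often in the negative cells of both libraries, with intervals that did not overlap at the thinned depth. Taken singly, Ccl3 was in 121 of 327 thinned negative cells of vehicle, Ptgs2 in 108, Cxcl3 in 64 and Ccl4 in 55. In beta-elemene the numbers were 179, 203, 125 and 97 of 495.

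Each selecting gene was then followed over cell types at the same thinned depth. Members had to carry a UMI of Ccl3, Ccl4, Cxcl3 or Ptgs2 and the other sets did not. The rule therefore set part of their higher detection of these 4 genes, or nearly all of it for Ccl4 in vehicle. Ccl3 was seen in 46.6% of vehicle and 45.9% of beta-elemene members, and in 17.0% and 21.2% of Retnlg/Mmp8 neutrophils. Gated endothelial cells, which should lack it, had it in 0.699% and 0%, the latter 0 of 138 cells with an upper bound of 2.64%. Cxcl3 was seen in 25.1% and 31.0% of members, 17.0% and 21.7% of Retnlg/Mmp8 neutrophils, and 0.699% and 0.725% of endothelial cells. Ccl4 was seen in 20.7% and 24.3% of members and 16.7% and 13.8% of Retnlg/Mmp8 neutrophils. Without the chemokine condition, Retnlg- and Mmp8-negative neutrophils had Ccl4 in 55 of 327 cells in vehicle and 97 of 495 in beta-elemene. They had Cxcl3 in 64 and 125 of these cells. Macrophages had Ccl4 in 18.5% and 19.5% and endothelial cells in 1.40% and 1.45%. Ptgs2 was seen in 43.4% and 49.1% of members, 17.6% and 26.5% of Retnlg/Mmp8 neutrophils and 13.2% and 11.6% of macrophages. It was also in 15.05% and 9.55% of gated T cells and in 1.40% and 2.90% of endothelial cells. Acod1, which took no part in the rule, had the smallest relative difference in this share between members and Retnlg/Mmp8 neutrophils. In summed level it differed more, with members over Retnlg/Mmp8 neutrophils at 1.54 in vehicle (1.43 to 1.66) and 1.53 in beta-elemene (1.45 to 1.62). It was seen in 66.1% and 70.0% of members, 61.4% and 62.6% of Retnlg/Mmp8 neutrophils, and 64.5% and 54.3% of neutrophils with neither transcript. Macrophages had Acod1 in 1.63% and 1.77%, and endothelial cells in 0% and 1.45%. Median depths before thinning were 9447 and 8927 UMIs for endothelial cells and 12863 and 11531 for macrophages, both deeper than the neutrophils.

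**Figure D2:**
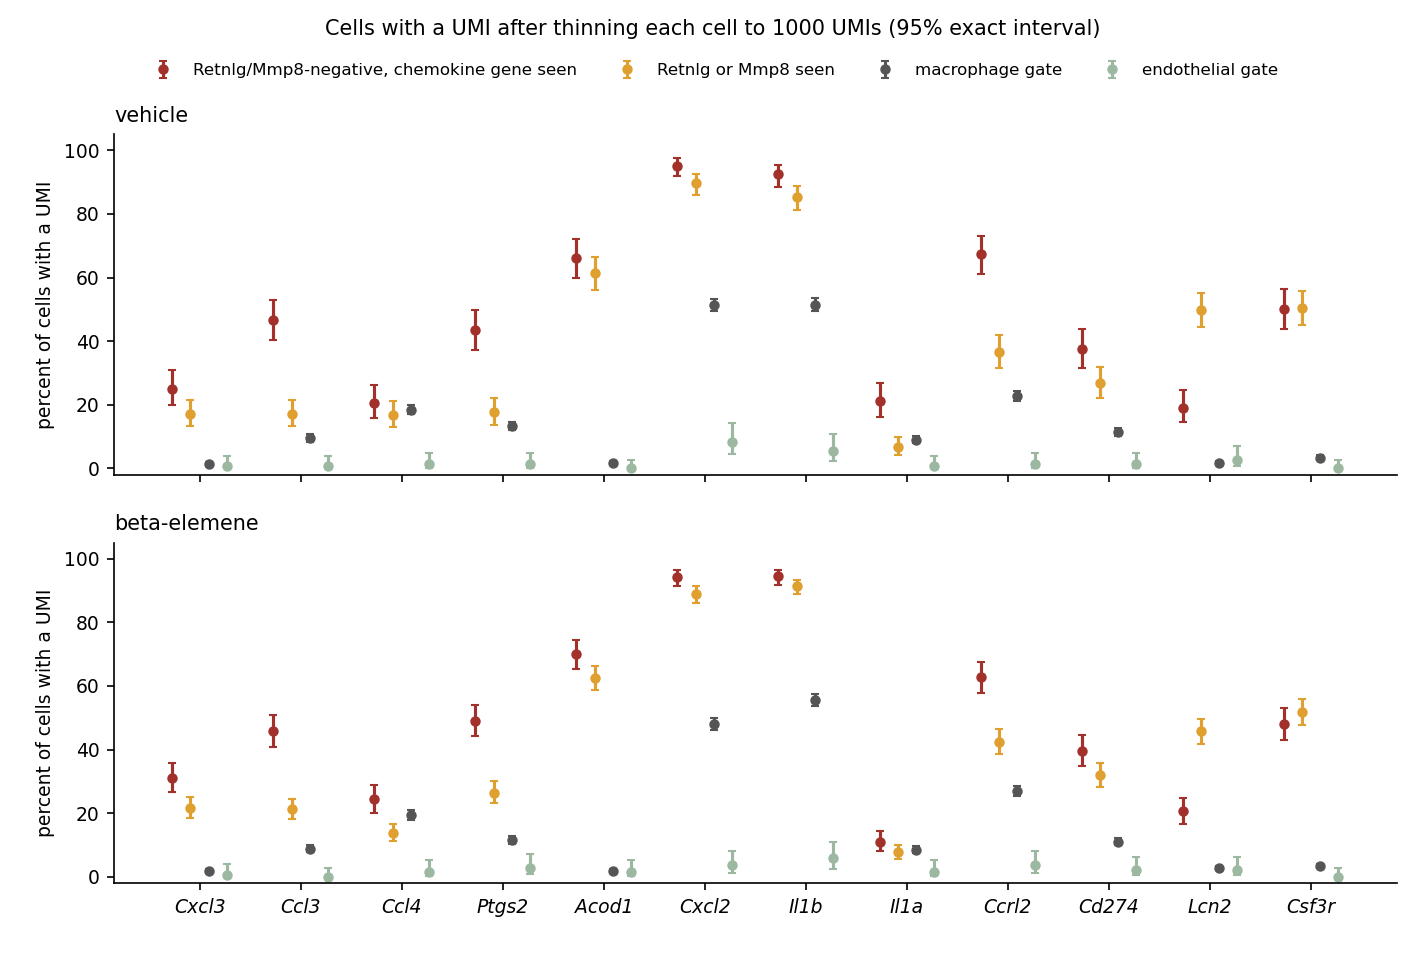
Percent of cells with at least 1 UMI of each gene after thinning each cell to 1000 UMIs, with 95% exact intervals, by cell set in the vehicle (top) and beta-elemene (bottom) library. Acod1, which took no part in the rule, stands at 66.1% and 70.0% in the Retnlg-negative chemokine set against 61.4% and 62.6% in neutrophils with Retnlg or Mmp8. The rule itself sets part of the contrast in Ccl3, Ccl4, Cxcl3 and Ptgs2, and nearly all of it for Ccl4 in vehicle.

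The members' part of each transcript was set beside their part of all RNA, as a description, since the rule required a UMI of Ccl3, Ccl4, Cxcl3 or Ptgs2. They contributed 0.322% of all UMIs of kept cells in vehicle and 0.558% in beta-elemene. They held 8.68% and 18.0% of all Cxcl3 UMIs and 10.7% and 17.3% of all Ccl3 UMIs. For Acod1, which the rule did not require, the shares were 20.5% and 23.5%, and Retnlg/Mmp8 neutrophils held a further 29.2% and 33.9%. Members held 2.75% and 4.59% of Ccl4 UMIs and 1.68% and 3.44% of Ptgs2 UMIs, so most UMIs of all 5 genes lay in other cells.

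Among themselves the members varied widely in chemokine transcripts. The median member had 4 chemokine-rule UMIs in vehicle and 5 in beta-elemene, with maxima of 108 and 125. The tenth of members with most held 47.9% and 44.9% of these UMIs. In vehicle 138 members showed 1 of the 4 genes and 13 showed all 4, and in beta-elemene the numbers were 190 and 15. Before thinning, Ptgs2 was the gene seen most often, in 59.1% and 67.9% of members, and Ccl4 the least, in 27.7% and 27.9%. Ptgs2 was the only one of the 4 seen in 60 vehicle and 111 beta-elemene members.

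Ccl3 and Ccl4 tended to be seen in the same cells. Over all Retnlg- and Mmp8-negative neutrophils thinned to 1000 UMIs, Ccl4 was in 27.3% of vehicle cells with Ccl3 (19.6 to 36.1) and 10.7% of those without (6.81 to 15.7). In beta-elemene it was in 37.4% and 9.49%. Cxcl3 was in 30.6% of vehicle cells with Ccl3 and 13.1% without, and in 31.3% and 21.8% in beta-elemene. Ptgs2 was in 32.8% of vehicle cells with Cxcl3 and 33.1% without, and in 35.2% and 43.0% in beta-elemene, with overlapping intervals in both libraries. Cd274, which encodes the checkpoint ligand PD-L1, was in 50.4% of vehicle cells with Ccl3 and 28.2% without, and in 50.3% and 31.0% in beta-elemene. These cells share 1 library, so the shares describe co-occurrence within it.

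Other genes were graded along the number of chemokine-rule UMIs, with members divided at 1, 2 to 4, 5 to 9, and 10 or more. Cxcl2 stood at 11206, 13782, 23171 and 36434 CPM in vehicle and at 9035, 14322, 21915 and 35649 CPM in beta-elemene, an increase at each step in both libraries. Fth1, the ferritin heavy chain, stood at 27011 CPM in the lowest and 43485 in the highest vehicle group, and at 27152 and 48681 in beta-elemene. Nfkbia, the NF-kB inhibitor that NF-kB itself induces, stood at 2387 and 4986 CPM in vehicle and 1696 and 4186 in beta-elemene. Cd274 was at 387 and 1061 CPM in vehicle and 657 and 1018 in beta-elemene. The cytokine Il1b was not graded in this way, at 10311 and 10314 CPM in vehicle and 10432 and 12343 in beta-elemene. Csf3r, the G-CSF receptor and a gene of the neutrophil gate, was lower in the highest group, with 917 and 549 CPM in vehicle and 943 and 612 in beta-elemene. Ifitm1 was lower there too, with 5426 and 2589 CPM in vehicle and 5876 and 4612 in beta-elemene. Median depth went from 1717 to 2079 UMIs over the vehicle groups and from 1712 to 2117 over the beta-elemene groups.

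**Figure D3:**
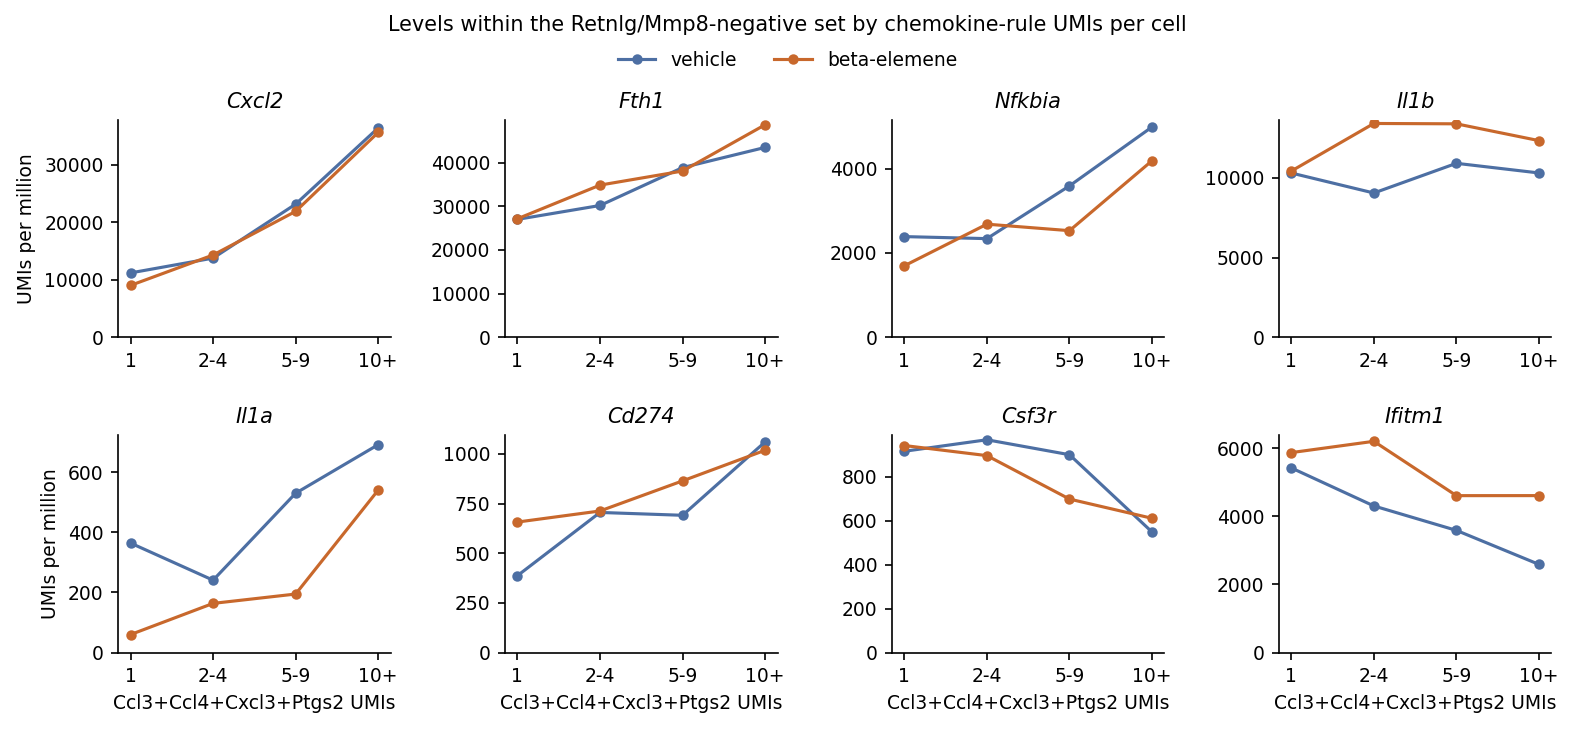
Summed level of 8 genes other than the 4 chemokine-rule genes, in CPM, in members grouped by their UMIs of Ccl3, Ccl4, Cxcl3 and Ptgs2, with 1 line per library. Cxcl2 reaches 36434 and 35649 in the cells with 10 or more such UMIs, Il1b stays near its starting level in vehicle, and Csf3r ends at 549 and 612.

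The limits of the rule cut through graded values. Members with 1 chemokine-rule UMI had Cxcl2 at 11206 and 9035 CPM, and neutrophils just outside with none had 9501 and 9787. In beta-elemene each sum keeps 1 cell with at least 10 Camp, Ngp and Ltf UMIs. Neutrophils with exactly 1 Retnlg or Mmp8 UMI and a chemokine UMI, also just outside, had Cxcl2 at 16975 and 20596 CPM and Ccl3 at 1155 and 1370 CPM. All neutrophils with 10 or more Retnlg and Mmp8 UMIs, with or without a chemokine-rule UMI, had Cxcl2 at 6524 and 7130 and Ccl3 at 158 and 278 CPM. Cells with an S100a8 and S100a9 share of 1 to 2%, kept out by the rule, had Ccl3 at 1518 and 2458 CPM, against 2436 and 1968 in those of 2 to 3%, kept in.

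Members and Retnlg/Mmp8 neutrophils were set side by side within each library. The rule made this contrast, so its values are descriptions. Cytokine, NF-kB and chemokine transcripts were higher in members and granule transcripts lower, in both libraries. A gene was measured with at least 100 UMIs over both sums, and a ratio of CPM of at least 1.5 in either direction was counted. In vehicle 21.5% of 1916 measured genes were higher in members and 9.71% lower, and in beta-elemene 11.6% and 6.62% of 2735. In both libraries 145 of 1910 genes were higher (7.59%) and 91 lower (4.76%). The median log2 ratio over all genes was 0.20 in vehicle and 0.12 in beta-elemene, and S100a8 and S100a9 made a median 6.29% and 6.05% of UMIs in members against 14.1% and 12.6% in Retnlg/Mmp8 neutrophils. With each ratio divided by the median over genes, the share of higher among counted genes went from 68.9% to 42.8% in vehicle and from 63.7% to 43.9% in beta-elemene, and 86 genes were higher and 125 lower in both libraries. A comparison against only those neutrophils with 1 to 9 Retnlg and Mmp8 UMIs was chosen after the data were seen. There 25 of 1381 measured genes were higher in both libraries (1.81%) and 22 lower (1.59%).

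Of 6 measured cytokine genes outside the rule, 5 were at least 1.5-fold higher in members of both libraries (Il1a, Il1b, Il1rn, Tnf and Csf1). Il1a, the interleukin-1 alpha gene at chr2:129299610-129309972, stood at 460 CPM in vehicle members and 63.3 in vehicle Retnlg/Mmp8 neutrophils, a ratio of 7.26 (5.59 to 9.53). In beta-elemene it stood at 286 and 90.4 CPM, a ratio of 3.17 (2.60 to 3.87). Tnf was at 150 and 34.6 CPM in vehicle and 122 and 37.4 in beta-elemene. Il1rn, the interleukin-1 receptor antagonist, was at 1036 and 358 CPM in vehicle and 736 and 357 in beta-elemene. Il1b, the most abundant of the list, had ratios of 1.81 and 1.64. Against the cells with 1 to 9 Retnlg and Mmp8 UMIs, 2 of the 6 passed the fold in both libraries, Il1a and Tnf. In cells of 1000 to 5000 UMIs, and likewise with a mean over cells, 4 of the 6 passed, and Il1b did not.

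Of 18 NF-kB target and feedback genes, 11 were higher in members of both libraries and none lower. Nfkbia stood at 3408 and 1325 CPM in vehicle (ratio 2.57, 2.40 to 2.75) and 2997 and 1729 in beta-elemene (1.73, 1.65 to 1.83). Tnfaip3, the deubiquitinase A20, had ratios of 2.63 and 2.07, and Gadd45b 2.20 and 2.22. Icam1, an adhesion molecule of the immunoglobulin family, had ratios of 3.66 and 2.95. Divided by the median over genes, 8 of the 18 passed in both libraries, and against cells with 1 to 9 Retnlg and Mmp8 UMIs 2 did, Icam1 and Gadd45b. In cells of 1000 to 5000 UMIs 5 of 17 passed in both libraries, and with a mean over cells 6 of 18. Over all genes the shares in these settings were 4.88% and 5.03%. Rel, an NF-kB subunit, was at 1.71 in vehicle and 1.06 in beta-elemene.

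Of 4 measured chemokine genes outside the rule, Cxcl1 and Cxcl2 were higher in members of both libraries. Cxcl2, at 22143 CPM in vehicle and 22712 in beta-elemene members, had ratios of 2.26 and 1.97. Cxcl1 had ratios of 3.20 and 2.64, but 36.2% of its vehicle UMIs lay in 1 member, and with cells of 1000 to 5000 UMIs only the vehicle ratio was 1.63. Ccrl2, a receptor that binds chemerin without signalling, had ratios of 3.04 and 2.23.

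Survival and interferon genes were higher in part. Of 10 survival and death regulators, 4 were higher in both libraries (Bcl2a1a, Bcl2a1b, Bax and Fas). Bcl2a1a and Bcl2a1b encode anti-apoptotic A1 proteins, and had ratios of 7.27 and 5.35 and of 4.69 and 2.85. They are near-identical copies, so the counting could have split reads between them. Of 14 type I interferon genes Isg15, Ifit1 and Rsad2 were higher in both libraries and Ifitm3 was lower. Rsad2, the antiviral enzyme viperin, had ratios of 3.66 and 2.48. Of 8 interferon gamma genes Gbp5 and Nlrc5 were higher, with Gbp5, a guanylate-binding protein of the inflammasome pathway, at 5.59 and 3.49. Of 9 sensing genes Nlrp3 and Tlr4 were higher, with Nlrp3, the inflammasome sensor, at 2.39 and 2.09. Against cells with 1 to 9 Retnlg and Mmp8 UMIs, the genes higher in both libraries were 2 of 9 survival genes (Bcl2a1a and Bcl2a1b), 2 of 12 type I interferon genes (Ifit1 and Rsad2), 1 of 7 interferon gamma genes (Gbp5) and 0 of 8 sensing genes.

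Other genes with the largest ratios in both libraries were Clec4n, the Dectin-2 receptor (3.36 and 2.98), Ninj1, a membrane-rupture protein (2.74 and 2.35), Ppp1r15a, a stress-response phosphatase subunit (2.49 and 2.25), Rbks, ribokinase (2.37 and 3.60), Marcksl1 (2.36 and 2.51) and the glutamine transporter gene Slc38a1 (2.41 and 2.39). Ptgs2os2, a transcript annotated on the strand opposite to Ptgs2 at chr1:150159043-150164948, outside the Ptgs2 gene, had ratios of 2.40 and 2.31. It was thinly covered, with 70 UMIs in vehicle and 119 in beta-elemene members.

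Granule and maturation genes were lower in members. Of 16 measured, 11 were at least 1.5-fold lower in both libraries and none higher. Against cells with 1 to 9 Retnlg and Mmp8 UMIs, 3 of 15 were lower in both. Lcn2, the iron-scavenging protein of secondary granules, stood at 309 CPM in vehicle members and 2984 in Retnlg/Mmp8 neutrophils, a ratio of 0.10. In beta-elemene it stood at 674 and 2174 CPM, a ratio of 0.31, or 0.17 without 2 granule-rich members described below. Against cells with 1 to 9 Retnlg and Mmp8 UMIs the Lcn2 ratios were 0.16 and 0.75. The 0.75 and the 3 of 15 keep the 2 granule-rich members, which held 202 and 67 of the 586 Lcn2 UMIs of beta-elemene members. That comparison was not run without them. Wfdc21 stood at 688 and 3384 CPM in vehicle and 703 and 2333 in beta-elemene. Ly6g, the surface marker of mature mouse neutrophils, gave 3 UMIs in vehicle members and 20 in beta-elemene members, 12 of the latter in 1 cell, beside 216 and 181 CPM in Retnlg/Mmp8 neutrophils. Prok2, a chemoattractant made by neutrophils, had ratios of 0.14 and 0.31, and S100a6, a calcium-binding protein, 0.35 and 0.34. Stfa3, Gyg, Mgst1 and Cnn2 had ratios between 0.18 and 0.27 in vehicle and between 0.20 and 0.35 in beta-elemene. Among enzymes of lipid mediators, Alox5ap, needed to make leukotrienes, had ratios of 0.34 and 0.43.

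**Figure D4:**
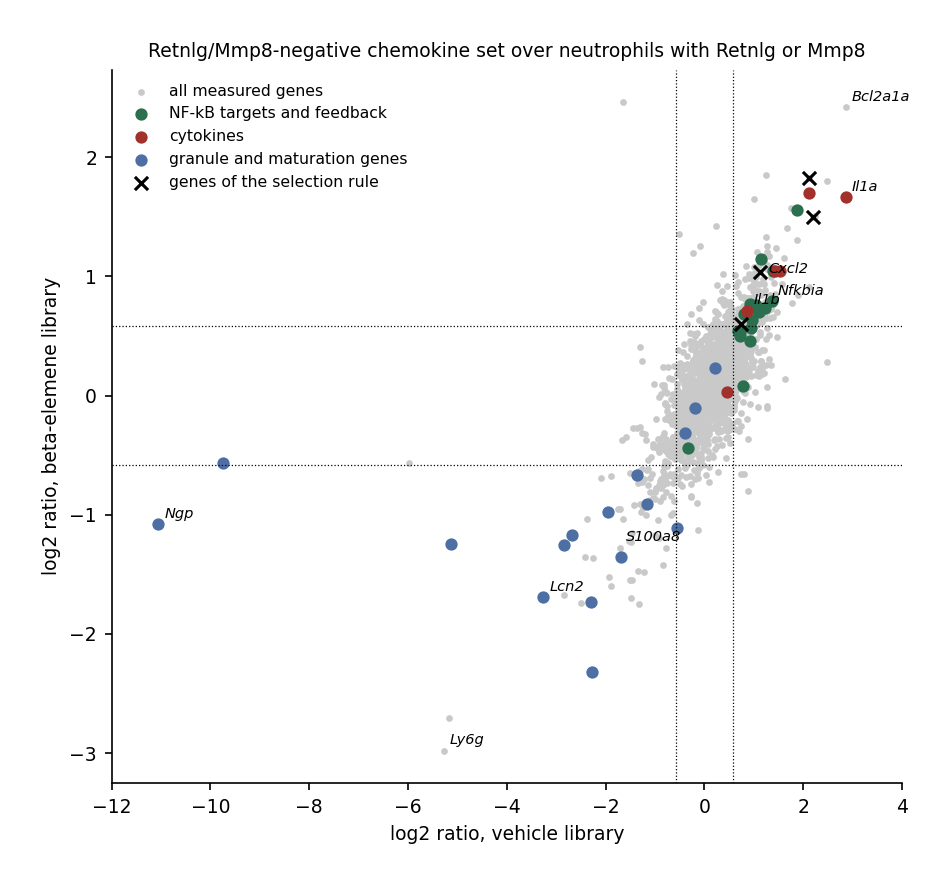
Log2 ratio of Retnlg-negative chemokine neutrophils over neutrophils with Retnlg or Mmp8 in the vehicle (x axis) and beta-elemene (y axis) library, 1 point per gene with at least 100 UMIs in both libraries, with dotted lines at 1.5-fold. Most cytokine and NF-kB genes lie at the upper right (Il1a at 7.26 and 3.17 as plain ratios) and most granule genes at the lower left, with Ngp and Camp at the far left on 1 UMI each in vehicle members.

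The beta-elemene and vehicle members were then compared with each other, the contrast that the treatment makes. Cxcl3, a gene of the rule, and 2 interferon gamma genes were at least 1.5-fold higher in beta-elemene members, while Il1a and 3 Bcl2a1 copies were lower. Cxcl2, Acod1, Ccl3, Ccl4 and Ptgs2 had ratios between 1.03 and 1.12. Of 1717 measured genes 60 were at least 1.5-fold higher (3.49%) and 82 lower (4.78%). The median log2 ratio over all genes was 0.02. In Retnlg/Mmp8 neutrophils the shares were 4.87% and 3.46% of 2893 genes.

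Cxcl3 stood at 712 CPM in vehicle members (384 UMIs) and 1307 in beta-elemene members (1136 UMIs), a ratio of 1.84 (1.63 to 2.07). It was the only 1 of the selecting genes past 1.5-fold in members. Members of both libraries had to carry a UMI of Cxcl3, Ccl3, Ccl4 or Ptgs2, so the ratios of these genes in members are descriptions. The Cxcl3 ratio lay between 1.77 and 1.96 under the alternatives tried. Retnlg/Mmp8 neutrophils had 426 and 861 CPM, a ratio of 2.02 (1.83 to 2.24), and kept cells outside the neutrophil gate had 21.3 and 22.97 CPM. Ccl3 was at 2057 and 2310 CPM (1.12, 1.04 to 1.21), Ccl4 at 1042 and 1141 (1.10, 0.99 to 1.22) and Ptgs2 at 873 and 932 (1.07, 0.95 to 1.20). Acod1, at 2170 and 2241 CPM, had a ratio of 1.03 (0.96 to 1.11), and Cxcl2 had 1.03 (1.00 to 1.05). In Retnlg/Mmp8 neutrophils the Ptgs2 ratio was 1.72, from 191 to 329 CPM, the Ccl3 ratio 1.37 and the Ccl4 ratio 1.16. The rule requires a chemokine-rule UMI of the members and not of these cells, and the differences were not tested. Of the 7 measured genes of the chemokine list 1 passed the fold, Cxcl3. Ccl8, which is not in that list, had a ratio of 2.02 (1.38 to 3.02) and is described below.

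Il1a was at 460 CPM in vehicle members and 286 in beta-elemene members, a ratio of 0.62 (0.52 to 0.75), and was seen in 27.4% and 17.6% of members. It was the 1 of 7 cytokine genes past the fold, and in members with at least 2 chemokine-rule UMIs 0 of 6 passed. Il1rn was at a ratio of 0.71 (0.63 to 0.80), Csf1, a macrophage growth factor, at 0.77 (0.65 to 0.91), and Il1b at 1.24 (1.20 to 1.28). In Retnlg/Mmp8 neutrophils Il1a had a ratio of 1.43, Il1rn 1.00 and Il1b 1.37.

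Of 18 NF-kB genes 3 had a ratio above 1 in members, with a list median of -0.32 on the log2 scale. Over all measured genes 902 of 1717 had a ratio above 1 in members. Only Tnip1, a ubiquitin-binding inhibitor of NF-kB, passed the fold, at 0.60 (0.41 to 0.88). Rel was at 0.67, Nfkb1 at 0.68, Tnfaip2 at 0.69 and Traf1 at 0.67, while Gadd45b was at 1.31 and Ier3 at 1.12. With the UMIs of all 18 genes summed, where abundant genes weigh most, the log2 ratio in members was -0.11. In Retnlg/Mmp8 neutrophils 10 of 19 such genes were above 1 and the median was 0.02. Over all genes measured there 1660 of 2893 were above 1. The list median in members lay between -0.39 and -0.14 under the alternatives, nearest 0 in cells with at least 2 chemokine-rule UMIs. Of 12 survival genes 3 passed the fold, all lower and all Bcl2a1 copies, with Bcl2a1a at 0.56 (0.42 to 0.76), Bcl2a1b at 0.62 (0.51 to 0.76) and Bcl2a1d at 0.57 (0.38 to 0.86). Mcl1, another anti-apoptotic gene, was at 1.24. Hk2, a hexokinase of glycolysis, was at 0.66 (0.57 to 0.75) in members and 1.02 in Retnlg/Mmp8 neutrophils. Without the 2 granule-rich cells described below Hk2 stood at 0.67 (0.59 to 0.77), no longer past the fold, and in cells of 1000 to 5000 UMIs 0 of 18 glycolysis genes were lower.

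A few interferon and antigen presentation genes passed the fold. Igtp, an interferon-inducible GTPase, was at 53.7 and 117 CPM, a ratio of 2.18 (1.43 to 3.42), with 2.25 in Retnlg/Mmp8 neutrophils. Ifi47, of the same family, was at 1.59. Of 10 interferon gamma genes these 2 passed the fold. In Retnlg/Mmp8 neutrophils 8 of 13 passed, all higher, with a list median of 0.68 on the log2 scale, and the difference between the sets was not tested. Of 13 genes of MHC class I presentation H2-Q4, Tap1 and Psme2 were higher and Canx lower. Of 14 type I interferon genes 1 was higher, Isg20 at 1.62, and 1 lower, Slfn5 at 0.56 (0.41 to 0.77). Isg15 was at 1.36 in members and 2.06 in Retnlg/Mmp8 neutrophils. Of 17 immediate early and heat-shock genes Dusp1, a phosphatase of MAP kinases, passed at 1.52.

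Part of the granule genes were higher in beta-elemene members, and most UMIs of Camp, Ngp and Ltf lay in 2 cells. Of 16 measured granule genes 8 passed the fold and the list median was 0.62. Camp, Ngp and Ltf, 3 genes of secondary granules transcribed in marrow precursors, had 17 UMIs over all vehicle members and 1525 over all beta-elemene members. Of the latter, 1075 were in 1 cell and 431 in another, the next highest member had 3, and the highest vehicle member had 2. The first cell had 17565 UMIs and 3558 genes, and also held 154 of the 187 Hist1h2ap UMIs, 22 of 38 Mki67 UMIs and 14 of 18 Cebpe UMIs. The second had 6957 UMIs, of which 43.3% were S100a8 and S100a9, and no Mki67 or Hist1h2ap. Scrublet called neither a doublet. They carried 8 and 1 chemokine-rule UMIs, and Retnlg/Mmp8 neutrophils with at least 10 Camp, Ngp and Ltf UMIs numbered 20 in vehicle and 17 in beta-elemene.

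Without these 2 cells, an alternative chosen after the data were seen, 2 of 13 measured granule genes passed the fold and the list median was 0.25. Lcn2 then had a ratio of 1.21 (1.00 to 1.47) in place of 2.18, Anxa1, the annexin that restrains neutrophil recruitment, 1.22 (0.94 to 1.59) in place of 2.06, and Lyz2, lysozyme, 0.99 in place of 1.63. Ifitm6 stood at 1.32 (0.69 to 2.63) in place of 3.97, Hist1h2ap, a histone gene of dividing cells and 1 of many near-identical copies, at 0.68 in place of 3.74, and Hmgn2, a chromatin protein, at 1.34 in place of 1.93. Pglyrp1, a bacterial cell wall binder, remained past the fold at 1.55 (1.12 to 2.18), and Olfm4, a secondary granule glycoprotein, at 2.20 (1.39 to 3.58), on 25 and 86 UMIs. Cxcl3, Il1a and the Bcl2a1 copies kept their side of the fold.

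**Figure D5:**
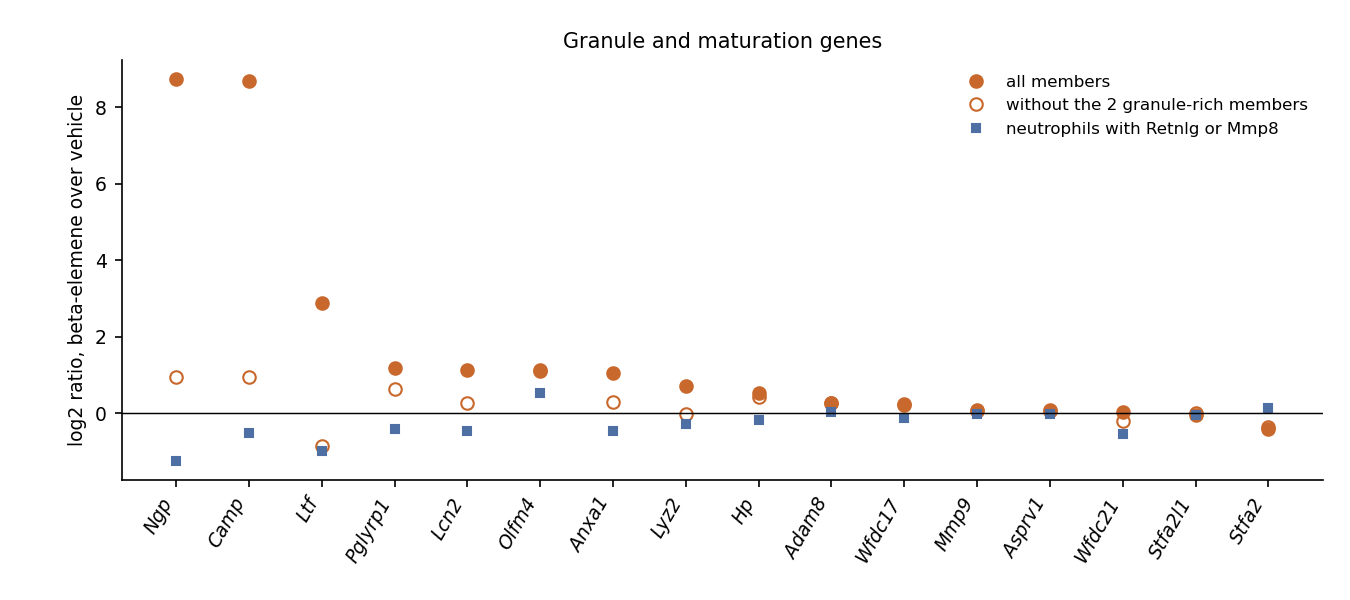
Log2 ratio of beta-elemene over vehicle for 16 granule and maturation genes, in all members (filled circles), without the 2 granule-rich beta-elemene members (open circles) and in neutrophils with Retnlg or Mmp8 (squares). Lcn2, Anxa1, Lyz2, Camp, Ngp and Ltf move toward 0 or below it without the 2 cells, and Olfm4 stays at a ratio of 2.20.

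Other genes among the highest and lowest ratios had few UMIs. Ube2s, a ubiquitin-conjugating enzyme of mitosis, was at 68.6 and 153 CPM (2.23, 1.54 to 3.30; 2.05 without the 2 cells), and Cdk11b, a cyclin-dependent kinase, at 74.1 and 145 CPM (1.96, 1.36 to 2.87). Ogfrl1 had a ratio of 1.92. Ccl8, a monocyte-attracting chemokine, was at 66.7 and 135 CPM (2.02, 1.38 to 3.02), beside 935 and 1257 CPM in gated macrophages and 250 and 325 CPM in all kept cells outside the neutrophil gate. Sparc, a matrix protein of stromal cells, was at 122 and 64.4 CPM (0.53, 0.36 to 0.76), beside 3780 and 3787 CPM in gated endothelial cells and 1001 and 1099 CPM in all kept cells outside the neutrophil gate. Whether RNA of those cells contributed was not tested. Dock10, a guanine exchange factor, was at 215 and 121 CPM (0.56, 0.43 to 0.74), and Dtnbp1, a subunit of a lysosome-biogenesis complex, at 124 and 63.3 CPM (0.51, 0.35 to 0.74). Cybb, the NADPH oxidase subunit gp91phox, was at 163 and 86.3 CPM, but 62.5% of its vehicle UMIs lay in 1 cell and the ratio was 0.94 without the top cell of each library. The Cybb ratio was 0.28 without the 2 granule-rich cells and 0.27 in cells of 1000 to 5000 UMIs. Rnf24 had 39.0% of its vehicle UMIs in 1 cell. Fam71f2, Heca, St13 and Mrpl52 had ratios from 0.43 to 0.56, and Ahnak, at 0.56, stood at 0.89 with called doublets removed.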

How the data were processed

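The deposited values were raw UMI counts, 1 matrix per library. Cell Ranger 7.1.0 produced the authors' matrices, per the file headers. The submitters' processing notes name Cell Ranger, STAR and the mm10 build. Libraries used 3' chemistry version 3, per the labels' protocols. The annotation release and the cell-calling rule are not given in the sources used here.

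UMIs were summed over the cells of a set, divided by the set's total (539583 UMIs in vehicle and 869317 in beta-elemene members) and expressed per 1000000 (CPM). Gm42418, a gene model that overlaps ribosomal RNA sequence, took 8.96% and 8.34% of member UMIs and stayed in the totals. Ratios carry exact conditional binomial 95% intervals and shares exact Clopper-Pearson intervals. Only the ratio interval was tried on simulated data. Those counts were drawn with the counting error that the interval assumes, so clustering of UMIs within cells was not covered. PCR duplicates are collapsed by UMI, but intervals cover counting error only. Genes with under 100 UMIs over both sums were left out. With 1 library per group no test was possible. Thinning drew 1000 UMIs per cell without replacement, leaving out 23 vehicle and 30 beta-elemene members below that depth. Doublets were called with Scrublet in Scanpy 1.11.5 and were kept in the main values. Python 3.11.15, NumPy 2.4.6, SciPy 1.17.1 and pandas 2.3.3 were used.

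Named genes were the 12 highest and 12 lowest ratios between libraries (interval excluding 1, seen in at least 5% of members of the higher library), the 15 highest and 10 lowest between sets in both libraries, the selecting genes, Acod1, and members of 21 gene lists. Genes of the rule, ribosomal, mitochondrial and unnamed gene models were not eligible. The members and lists were chosen with earlier results of these data known. Gene coordinates are from GENCODE vM21 (GRCm38, the same assembly as mm10). Alternatives covered scaling, gene and cell filters, depth and doublets.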

Additional observations from a re-analysis of the deposited data

Results flagged for a closer look

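Only the genes named by rank in the contrasts above, the genes of the rule and Acod1 were searched, not all measured genes. For 12 of them the beta-elemene to vehicle ratio went opposite ways in members and in neutrophils with Retnlg or Mmp8. Both counting intervals excluded 1. Many had been named for extreme ratios in members, so the count is no share over all genes. With 1 library per group the difference between the 2 sets was not tested. For 5 of the 12 genes the ratio in members fell from above 1.5 to below it without the 2 granule-rich beta-elemene cells. Hist1h2ap had a ratio of 3.74 in members and 0.22 in the other neutrophils, Ifitm6 3.97 and 0.72, Lcn2 2.18 and 0.73, Anxa1 2.06 and 0.72, and Hmgn2 1.93 and 0.81. Without the 2 cells these genes stood between 0.68 and 1.34 in members. Pglyrp1 had 2.26 and 0.75, with 1.55 in members without the 2 cells. Prok2, a chemoattractant gene, had 1.82 and 0.80, with 1.80 without the 2 cells, on 28 vehicle and 82 beta-elemene UMIs. S100a9, a gene of the rule, had 1.16 and 0.95, with 1.10 without the 2 cells.

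The others were lower in members. Il1a had 0.62 in members and 1.43 in the other neutrophils (1.08 to 1.90), and Slfn5 0.56 and 1.59 (1.17 to 2.18). Fam71f2 had 0.43 and 1.96, on 81 and 56 UMIs in members. Sparc, a stromal transcript, had 0.53 and 1.68, on 66 and 56 UMIs in members, and 107 of the 216 Sparc UMIs of the other beta-elemene neutrophils lay in 1 cell.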

How the results depend on the processing

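No paired analysis was possible because each group has 1 library. Shares moved with the limits of the rule. With S100a8 and S100a9 at 1% or more, members were 3.05% of vehicle and 4.68% of beta-elemene kept cells, and with 5% or more 1.58% and 2.38%, or 30.5% and 28.7% of gated neutrophils. With at least 2 chemokine-rule UMIs they were 2.04% and 3.11% of kept cells and 30.0% and 28.0% of neutrophils. Removing doublets, stricter cell filters, every deposited barcode and thinning kept the members' shares of kept cells and of gated neutrophils within their intervals.

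Counts of genes past 1.5-fold depended on the UMI minimum by construction. With 50 UMIs, 147 genes were higher and 220 lower with beta-elemene in members, and with 200 UMIs 17 and 30. For members over Retnlg/Mmp8 neutrophils the counts with 50 UMIs were 791 and 342 in vehicle, 594 and 333 in beta-elemene and 263 and 143 in both, and with 200 UMIs 205 and 102, 140 and 97, and 71 and 60. Division by the median ratio gave 223 higher and 298 lower in vehicle, 199 higher in beta-elemene and 86 higher in both. Leaving out the 20 most abundant genes gave 242 higher in vehicle and 96 in both, and a mean over cells 96 in both. Cells of 1000 to 5000 UMIs gave 229 and 107 in vehicle, 203 and 120 in beta-elemene and 73 and 49 in both. Comparison cells with 1 to 9 Retnlg and Mmp8 UMIs, added after the data were seen, gave 144 and 66, 78 and 63, and 25 and 22. The last 2 counts are of 1381 genes measured in both libraries, and the cause was not tested.

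Hist1h2ap turned to 0.73 without its top cell, 0.58 in cells of 1000 to 5000 UMIs and 0.68 without the granule-rich members, and Ifitm6 to 0.99 in cells of 1000 to 5000 UMIs. The chemokine list median was -0.00951 with at least 500 genes and at most 10% mitochondrial UMIs, against 0.13. Depth limits genes near 100 UMIs, such as Dtnbp1 with an interval of 0.35 to 0.74.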
